A study of Mus musculus with 3 samples.

Results

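Smad3 peaks at promoters that carried no JMJD3 peak made up 7252 of 24930 promoter Smad3 peaks in mouse neural stem cells (29.1%, 95% CI 28.5 to 29.7), out of 98086 Smad3 peaks in all. They were chosen by 2 measured values. The midpoint of the peak lay at most 1000 bp from the closest transcription start site (TSS), and the peak shared no base pair with any of the 63154 JMJD3 peaks. The 29.1% is therefore the result of the selection and is given as a description. For comparison, 43.4% of the Smad3 peaks farther from a TSS lacked JMJD3. Of 15887 JMJD3 peaks at promoters, 1052 (6.62%) lacked Smad3. The 7252 peaks lay in 5596 regions, a region being peaks of the Smad3 list joined where they were at most 10 bp apart, and named 4818 genes as closest.

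The peaks came from chromatin immunoprecipitation and sequencing (ChIP-seq) of wild-type neural stem cells taken from the cerebral cortex of mouse embryos at E12.5. The cells were cultured with EGF (20 ng/ml) and FGF (10 ng/ml), and the 3 libraries of the series (1 made with a Smad3 antibody, 1 with a JMJD3 antibody and 1 from input) all came from cells given TGFb at 5 ng/ml. The antibody libraries were made after 30 minutes of TGFb, and the labels give no time for the input. With 1 library per antibody there is no replicate error, and with no untreated library among the samples no value shows an effect of TGFb. The intervals printed are exact Clopper-Pearson intervals of shares, or rank intervals of medians, and cover counting error only. The files hold positions without heights or read numbers, so the depth behind a peak is unknown, and a region's width is the only measure of its size. Neighbouring peaks are not independent of each other.

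Smad3 is phosphorylated by the TGF-beta receptor complex, joins Smad4 and enters the nucleus, where it binds short DNA elements together with other transcription factors. JMJD3, encoded by Kdm6b, removes methyl groups from lysine 27 of histone H3, a mark laid down by Polycomb complexes at silent developmental genes. In the embryonic cortex both proteins have been studied for their part in the step from stem cell to neuron.

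The labelled cell type was checked at the promoters of its marker genes. Of 15 neural stem cell markers, 13 had Smad3 with JMJD3 at the promoter, Msi1 had Smad3 without JMJD3, and Prom1 had neither. No promoter peak of either protein was listed for any of 4 oligodendrocyte, 5 microglial or 4 endothelial markers. Among 6 neuronal, 4 astrocyte and 4 fibroblast markers, Gfap and Col1a1 were the ones with Smad3 and no JMJD3, while 3 neuronal markers and 1 astrocyte marker had both proteins. Over all 20953 coding genes, 43.3% had both proteins at the promoter, 11.7% had Smad3 without JMJD3 and 9132 had neither. A promoter peak records binding and not expression, so the marker counts are no measure of purity.

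The promoters of 3 sets of genes show the kinds of gene involved. Each sequence runs 5′ to 3′ on the gene's strand from 250 bases before to 50 bases after the RefSeq start, on build GRCm38.p6, which is later than the mm9 build of the peaks. Coordinates of the 2 builds are not interchangeable. The sequences of the peaks themselves were not read, so an element in a window need not lie under a Smad3 peak. Capitals mark the short elements known to bind SMAD proteins, namely CAGAC, the GC-rich GGCGC with its relative GGCCG, and the palindrome GTCTAGAC, on either strand. The ligand genes Tgfb1 and Tgfb2 and the receptor gene Tgfbr2 are shown because they carried Smad3 without JMJD3 in TGFb-treated cells, and were picked after their values were seen. Tgfb3 is named only.
Tgfb1 (chr7:25686752-25687051, plus strand): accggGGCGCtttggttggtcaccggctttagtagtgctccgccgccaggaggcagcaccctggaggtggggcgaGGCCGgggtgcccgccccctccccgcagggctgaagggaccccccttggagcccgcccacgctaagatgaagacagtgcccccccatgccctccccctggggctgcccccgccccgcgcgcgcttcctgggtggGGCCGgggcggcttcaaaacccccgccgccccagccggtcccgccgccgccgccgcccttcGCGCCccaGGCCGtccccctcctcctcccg
Tgfb2 (chr1:186705940-186706239, minus strand): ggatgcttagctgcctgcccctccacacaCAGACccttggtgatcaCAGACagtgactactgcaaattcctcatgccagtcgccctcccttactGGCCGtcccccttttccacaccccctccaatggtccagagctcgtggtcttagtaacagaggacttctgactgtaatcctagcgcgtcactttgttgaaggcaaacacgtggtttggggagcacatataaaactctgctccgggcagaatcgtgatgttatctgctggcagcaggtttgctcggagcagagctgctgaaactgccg
Tgfbr2 (chr9:116175314-116175613, minus strand): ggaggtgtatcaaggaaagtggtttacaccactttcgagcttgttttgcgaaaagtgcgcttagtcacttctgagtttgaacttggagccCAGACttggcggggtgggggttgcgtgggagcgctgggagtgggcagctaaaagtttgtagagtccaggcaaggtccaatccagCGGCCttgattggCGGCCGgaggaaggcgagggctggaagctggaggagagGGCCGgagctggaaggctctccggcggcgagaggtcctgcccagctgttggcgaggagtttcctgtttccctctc
The Tgfb1 window had 77.0% GC and 6 GC boxes (GGGCGG), with 2 matches to GGCGC and 3 to GGCCG. The Tgfb2 window had 54.3% GC, no GC box, 2 matches to CAGAC and a TATA box (TATAAA). The Tgfbr2 window had 59.0% GC, 1 match to CAGAC and 4 to GGCCG, with the stretch CGGCCG counted on each strand.

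The next 4 promoters carried the widest Smad3 regions without JMJD3 among those with an entry.
Hist1h4h (chr13:23530794-23531093, plus strand): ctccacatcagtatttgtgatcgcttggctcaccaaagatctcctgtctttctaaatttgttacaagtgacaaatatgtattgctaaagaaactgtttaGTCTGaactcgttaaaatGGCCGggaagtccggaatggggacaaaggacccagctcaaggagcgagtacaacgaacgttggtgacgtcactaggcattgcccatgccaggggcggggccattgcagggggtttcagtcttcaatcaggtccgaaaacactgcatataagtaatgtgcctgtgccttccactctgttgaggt
Hunk (chr16:90386147-90386446, plus strand): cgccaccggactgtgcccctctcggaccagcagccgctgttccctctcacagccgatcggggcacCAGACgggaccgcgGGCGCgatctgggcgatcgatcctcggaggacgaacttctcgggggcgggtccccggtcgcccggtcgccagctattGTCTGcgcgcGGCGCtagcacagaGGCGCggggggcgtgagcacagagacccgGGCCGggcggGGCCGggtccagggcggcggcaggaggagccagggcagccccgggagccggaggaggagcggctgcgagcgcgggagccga
Atp5g2 (chr15:102670998-102671297, minus strand): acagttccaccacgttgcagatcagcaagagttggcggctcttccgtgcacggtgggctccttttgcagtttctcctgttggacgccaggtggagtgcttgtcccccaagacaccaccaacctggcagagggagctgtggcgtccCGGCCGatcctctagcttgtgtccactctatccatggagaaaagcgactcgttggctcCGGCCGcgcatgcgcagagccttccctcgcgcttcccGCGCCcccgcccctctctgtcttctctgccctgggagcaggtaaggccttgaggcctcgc
Cct3 (chr3:88296885-88297184, plus strand): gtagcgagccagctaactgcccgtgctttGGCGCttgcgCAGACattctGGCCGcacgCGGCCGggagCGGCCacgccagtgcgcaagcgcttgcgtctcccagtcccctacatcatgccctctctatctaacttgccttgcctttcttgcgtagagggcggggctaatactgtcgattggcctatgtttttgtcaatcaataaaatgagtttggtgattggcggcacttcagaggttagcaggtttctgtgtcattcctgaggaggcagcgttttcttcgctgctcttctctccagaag
Their GC content ranged from 47.7% at Hist1h4h to 75.7% at Hunk. Each had 1 or more GC boxes, and 3 of the 4 held CAGAC, Atp5g2 being the exception.

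The last 2 are the promoters of the class that lay farthest from any JMJD3 peak.
Vmn1r90 (chr7:14562122-14562421, minus strand): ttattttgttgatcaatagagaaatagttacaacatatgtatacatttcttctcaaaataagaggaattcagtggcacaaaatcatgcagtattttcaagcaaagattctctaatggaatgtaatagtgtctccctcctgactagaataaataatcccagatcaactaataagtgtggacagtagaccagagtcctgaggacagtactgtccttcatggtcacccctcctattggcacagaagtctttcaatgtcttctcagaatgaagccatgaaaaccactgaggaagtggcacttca
Fbxo8 (chr8:56550904-56551203, plus strand): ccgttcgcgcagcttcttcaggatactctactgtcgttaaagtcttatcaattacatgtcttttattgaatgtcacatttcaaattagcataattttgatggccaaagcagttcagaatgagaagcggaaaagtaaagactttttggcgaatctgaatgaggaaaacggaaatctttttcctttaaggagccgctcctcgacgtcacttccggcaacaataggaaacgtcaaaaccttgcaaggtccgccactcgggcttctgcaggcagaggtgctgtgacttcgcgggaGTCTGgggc
Neither held a GC box. The Vmn1r90 window had 38.0% GC, no CG dinucleotide and none of the SMAD elements, and the Fbxo8 window had 45.7% GC and 1 CAGAC.

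Members were of 3 kinds, set apart by what else lay at the same gene. The largest kind, 4309 peaks (59.4%) at 2630 genes, sat at genes with no JMJD3 peak listed at the promoter. A further 2828 (39.0%) at 2110 genes lay beside another promoter Smad3 peak of the same gene that did overlap JMJD3, and are called flanking peaks. The remaining 115 (1.59%) at 78 genes had a JMJD3 peak listed at the promoter that no Smad3 peak of the gene touched.

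The flanking peaks lay mostly downstream, inside the start of the gene, with 25.5% (23.9 to 27.2) upstream. Their median midpoint was at +518 bp (95% CI 495 to 534), 51.4% (49.6 to 53.3) lay more than 500 bp downstream, and 8.56% covered the TSS. Peaks at genes without JMJD3 were centred on the TSS. Their median was 0 bp (-5 to 8), 57.1% lay within 250 bp of it and 46.1% covered it. In this they were close to the 17678 promoter Smad3 peaks that overlapped JMJD3, which had a median of -13 bp (-18 to -9), 54.8% within 250 bp and 47.7% over the TSS. Flanking peaks had to avoid JMJD3 at a gene that carries it, and in 75.9% the nearest JMJD3 midpoint was closer to the TSS than the peak, so their place away from the start follows in part from the selection.

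The share of Smad3 peaks without JMJD3 followed this. It was lowest just upstream of the TSS, at 21.5% (20.6 to 22.5) between -250 bp and the start. It was 40.2% (36.8 to 43.7) between -1000 and -750 bp and 58.1% (55.6 to 60.6) between 750 and 1000 bp downstream. Of the 892 members in the last class, 680 were flanking peaks, while of the 1581 just upstream of the start 1364 belonged to genes without JMJD3.

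**Figure D1:**
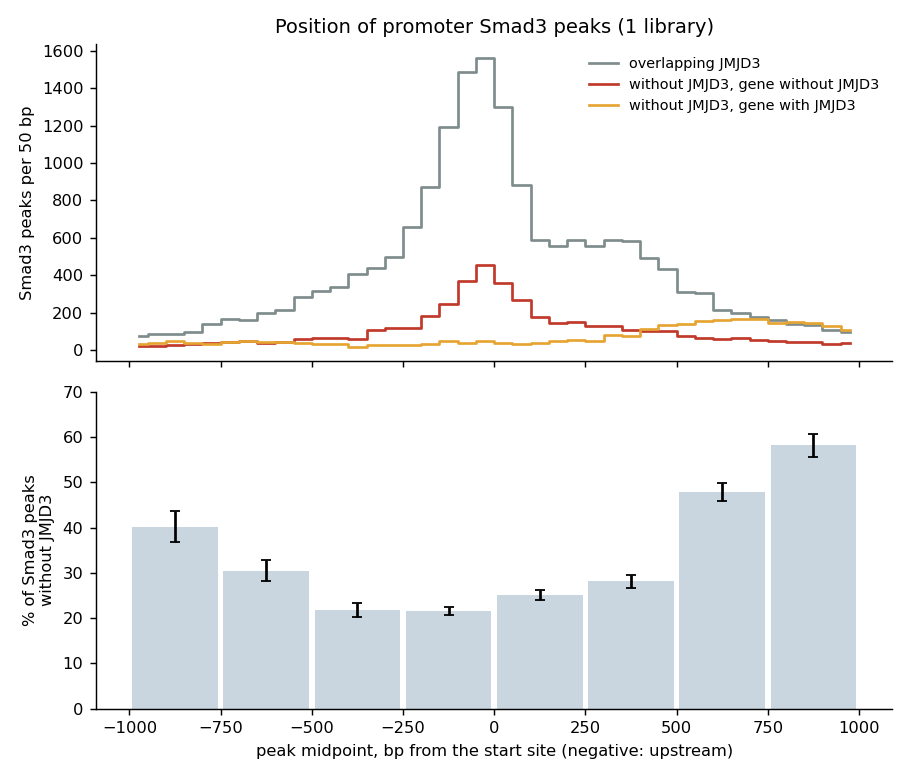
Top, number of promoter Smad3 peaks per 50 bp against the distance of the midpoint from the TSS (bp), for peaks overlapping JMJD3 and for the 2 main kinds without it. Bottom, share of promoter Smad3 peaks without JMJD3 in classes of 250 bp with exact 95% intervals, which rises from 21.5% just upstream of the start to 58.1% at 750 to 1000 bp downstream.

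The distance to the nearest JMJD3 peak separated the same kinds, partly because the kinds were defined by JMJD3 at the gene. Flanking peaks had a median gap of 210 bp (200 to 220), and 93.1% lay within 1000 bp of JMJD3. In 67.7% of them the peak was downstream of the TSS with the nearest JMJD3 midpoint on its TSS side. Of the flanking peaks, 35.1% were in a joined Smad3 region with a peak that overlapped JMJD3, so there the JMJD3 peak ended inside a continuous Smad3 stretch. Peaks at genes without JMJD3 had a median gap of 13239 bp (12570 to 14040). Of these, 5.94% had JMJD3 within 1000 bp, named to another gene or lying beyond the limit, and 85.8% had it within 50 kb.

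**Figure D2:**
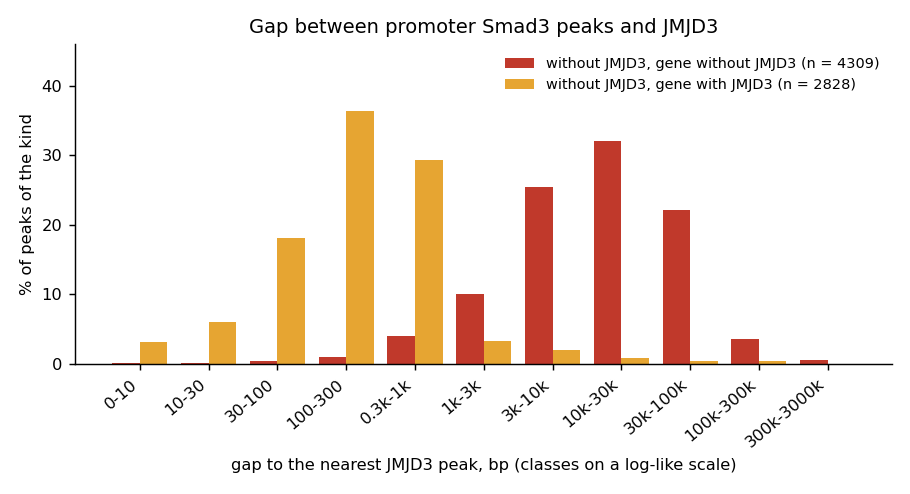
Share of peaks (%) by the gap in bp to the nearest JMJD3 peak, in unequal classes, for the 4309 peaks at genes without JMJD3 and the 2828 flanking peaks. The highest bar is at 100 to 300 bp (36.3%) for flanking peaks and at 10 to 30 kb (32.1%) for the others.

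The threshold on overlap cut through a continuum. Gaps of at most 20 bp were found for 236 members, and 222 promoter peaks on the other side of the rule had at most 20 bp under JMJD3, 48 of them exactly 1 bp. At the distance limit, 202 Smad3 peaks without JMJD3 lay in the last 50 bp inside it and 197 in the first 50 bp outside it.

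Among genes with JMJD3, the most flanking peaks were found at Ddr1, a collagen receptor kinase, with 8. Socs2, a suppressor of cytokine signalling, had 7, and Nfia, a nuclear factor I gene needed for gliogenesis, had 6. Dlgap4, a postsynaptic scaffold gene, and Mxi1, a Myc antagonist, had 5 each. The 5 at Mxi1 formed a run of midpoints at -258, -8, 197, 463 and 747 bp around 1 of its starts, with gaps to JMJD3 between 2520 and 3509 bp. The 8 at Ddr1 lay at -861 to 873 bp, with gaps between 59 and 1070 bp. At these genes the distances refer to more than 1 annotated start.

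Some flanking peaks named a start of the gene that was free of JMJD3, though not always a second start. This held for 181 of the 2828 (6.40%), where no JMJD3 base lay within 1000 bp of the start that the peak named, and for 94 of 2061 coding genes with flanking peaks. The widest such region was at Lmna, the gene of the nuclear lamins A and C, with 3 peaks in 1340 bp and its JMJD3-bearing start 10033 bp away. Next came Slc38a1, a glutamine transporter, with 1330 bp and starts 951 bp apart. Mxi1 had 1240 bp and starts 18907 bp apart, Ptpn21, a tyrosine phosphatase, 1240 bp and 2760 bp, and Rbfox2, a neuronal splicing factor, 1190 bp and 153241 bp. These genes were chosen after their values were seen.

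By gene, 2459 of 20953 coding genes (11.7%, 11.3 to 12.2) had Smad3 and no JMJD3 at the promoter, which is 21.3% of the 11524 with Smad3 there. Smad3 with JMJD3 was found at 9065 (43.3%), JMJD3 without Smad3 at 297, and neither at 9132. In 83 of the 2459 genes (3.38%) a JMJD3 peak did reach within 1000 bp of the TSS, but named another gene or had its midpoint beyond the limit.

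Genes without JMJD3 had narrower Smad3 regions. The median of the widest promoter region was 521 bp (511 to 540), against 821 bp (811 to 831) at genes with both. A wide peak is more likely to touch JMJD3 by construction, so the difference is a description. With the Smad3-bound genes ordered by width in 10 equal classes, the share without JMJD3 fell from 59.9% (57.0 to 62.8) at a median of 311 bp to 3.21% (2.27 to 4.40) at a median of 1630 bp. In the widest class, 37 of 1153 genes lacked JMJD3.

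**Figure D3:**
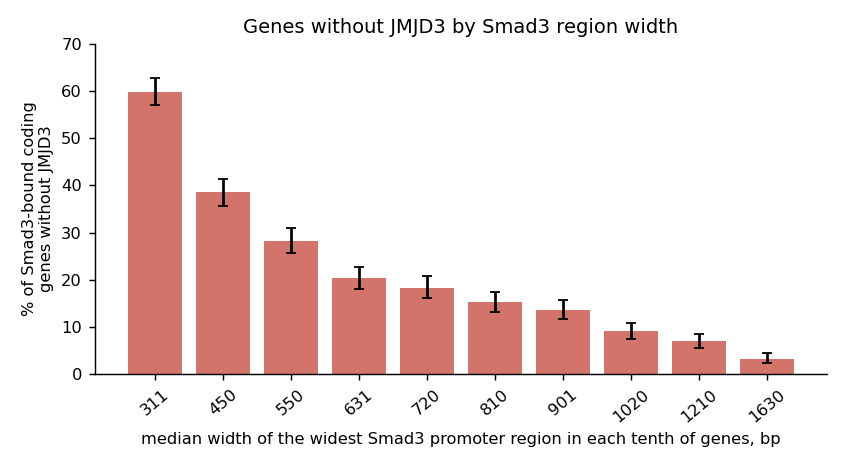
Share (%) of Smad3-bound coding genes without JMJD3 in 10 equal classes ordered by the width of the widest Smad3 promoter region; bars show exact 95% intervals and labels the median width in bp. The share is 59.9% in the narrowest class and 3.21% in the widest.

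The widest regions were found at genes of unlike function. Hist1h4h, a histone H4 gene, had a region of 2090 bp on chromosome 13 (23621911 to 23624000, mm9) with 5 peaks, and the nearest JMJD3 peak was 1070 bp away. Hunk, a protein kinase gene, had 2040 bp on chromosome 16 (90386131 to 90388170), 6690 bp from JMJD3. Atp5g2, an ATP synthase subunit, had 1980 bp and a gap of 13090 bp, a region in which 1 of 4 peaks named Atp5g2 and the other 3 named Mir688. Cct3, a chaperonin subunit, had 1890 bp and a gap of 37750 bp, with 3 of the 5 peaks naming it. For these 4, the peaks ran across the TSS in one continuous stretch as long as the regions where JMJD3 was usually present.

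Igsf9b, an adhesion protein of inhibitory synapses, had 1890 bp, and Unk, a zinc finger RNA-binding protein, 1700 bp. Crat and Ppp2r4, which share a promoter, had a single region of 1640 bp, 14580 bp from JMJD3. Dhx30, an RNA helicase, had 1620 bp with its 1 promoter peak at -955 bp. Prmt8, an arginine methyltransferase of neurons, had 1770 bp, but 3 of the 5 peaks in this region overlapped JMJD3 beyond 1 kb of the TSS. Its 1 promoter peak, at +721 bp, lay 360 bp from JMJD3.

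JMJD3 was not absent from the rest of these loci. The genes of the class with the most Smad3 peaks in all were Sox6 (85 Smad3 and 38 JMJD3 peaks), a SoxD factor of cortical progenitors, and Dgki (79 and 30), a diacylglycerol kinase. Kcnd3 (73 and 32), Opcml (71 and 46) and Atg7 (65 and 12), a potassium channel, a neural adhesion molecule and an autophagy enzyme, followed. At Sox6 the 4 promoter peaks lacked JMJD3, and the nearest JMJD3 peak was 2620 bp from the widest promoter region. Over the whole class, 53.4% (51.4 to 55.4) had a JMJD3 peak named to the gene beyond 1 kb of the TSS, against 57.6% (56.5 to 58.6) of genes with both and 29.1% of genes with neither. Between 1 and 5 kb the shares were 12.8% (11.5 to 14.2), 22.5% (21.6 to 23.4) and 6.68%.

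At the other end, 5 genes lay far from any JMJD3 peak. The gap was 1298829 bp at Vmn1r90, a vomeronasal receptor gene with 1 Smad3 peak of 231 bp, and 884839 bp at Fbxo8, an F-box gene with a region of 321 bp. Rdh14, a retinol dehydrogenase (461 bp), Grik2, a kainate receptor subunit (280 bp), and Ctnna2, the neural alpha-catenin (321 bp), completed the 5. All of these regions were narrower than the class median of 521 bp and consisted of 1 peak.

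In the TGF-beta pathway, genes of 4 of 6 ligands and of 4 of 9 receptors and co-receptors carried Smad3 without JMJD3. Of 35 listed ligand, receptor and regulator genes, 8 were of the class (22.9%, 10.4 to 40.1), 21 had Smad3 with JMJD3 and 6 had neither. As a share of the 29 with Smad3 this was 27.6% (12.7 to 47.2), an interval that includes the 21.3% of all Smad3-bound genes. The split by role was made after the values were seen. Of 6 ligand genes, 4 had Smad3 without JMJD3 and 2, Inhba and Nodal, had neither, so no ligand gene had JMJD3 at the promoter. Of 9 receptor and co-receptor genes, 4 were without JMJD3, 4 were with it and Tdgf1 had neither. None of 14 SMAD, SMAD partner and repressor genes was without JMJD3 where Smad3 was present, as 12 had both and Foxh1 and Zfyve9 had neither.

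Tgfb1 had 1 narrow peak of 160 bp at -168 bp, and no JMJD3 peak named it (gap 5459 bp). Tgfb2 had 2 peaks in 800 bp on chromosome 1 (188528921 to 188529720), 21800 bp from JMJD3, although 12 JMJD3 peaks named the gene farther away. Tgfb3 had 4 promoter peaks, the widest region spanning 650 bp, and JMJD3 lay 1440 bp off. Inhbb, the activin beta B subunit, had 720 bp and a gap of 30700 bp. The 4 ligand genes thus differed in width and in JMJD3 peaks nearby.

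The receptors of a pair fell on different sides. Tgfbr2, the type II receptor that binds the ligand, had 1 peak of 741 bp at +90 bp on chromosome 9 (116084021 to 116084761), 35560 bp from JMJD3. Tgfbr1, the type I receptor that phosphorylates Smad3, had a Smad3 region of 1440 bp over a JMJD3 region of 1360 bp. The co-receptor genes Tgfbr3, with 970 bp, and Eng, with 370 bp, lacked JMJD3, as did Acvr1c (400 bp), a type I receptor. Acvr1b, Acvr2a and Acvr2b had JMJD3. Smad2, Smad3 and Smad4 had Smad3 regions of 1430, 1770 and 1350 bp, each with JMJD3 at the promoter.

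Of 30 TGF-beta response genes, 3 were of the class (10.0%, 2.11 to 26.5, against 11.7% of all coding genes) and 24 had both. Matrix genes among them were Col1a1, a collagen chain, with 501 bp centred downstream (nearest midpoint +735 bp), and Tgfbi, with 1 peak of 271 bp. The other was Zeb1, a repressor of epithelial genes. The median Smad3 region of the 27 bound response genes was 1371 bp, against 501 bp for those 3. Of 25 BMP and GDF genes, 5 were of the class (20.0%, 6.83 to 40.7). As a share of the 18 with Smad3 this was 27.8% (9.69 to 53.5), an interval that includes the 21.3% of all Smad3-bound genes. Smad9, a BMP-activated SMAD, had 500 bp, and Chrd, a BMP antagonist, had 271 bp. The others were the ligand genes Gdf6 (370 bp), Gdf11 (320 bp) and Gdf5 (290 bp). All 5 regions were below the class median.

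Kdm6b, the gene of JMJD3 itself, had Smad3 and no JMJD3 at its promoter. Its region of 440 bp lay on chromosome 11 (69226781 to 69227220) with the nearest midpoint at +176 bp. The gap to JMJD3 was 740 bp, and 13 JMJD3 peaks named the gene, the nearest at +1531 bp. Kdm6a, the related demethylase, had a Smad3 region of 420 bp with a JMJD3 region of 800 bp. Of 34 Polycomb and H3K27 demethylase genes, 28 had both and 3 were of the class. That is 8.82% (1.86 to 23.7), against 11.7% of all coding genes. Besides Kdm6b, the class held the Polycomb subunits Phc3 (640 bp) and Pcgf6 (360 bp).

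Of 36 neural progenitor genes, 31 had both proteins and 4 were of the class. That is 11.4% (3.20 to 26.7) of the 35 with Smad3, an interval that includes the 21.3% of all Smad3-bound genes. Tead2, a partner of YAP, had 4 peaks and a widest region of 740 bp. The others were Otx1, a forebrain homeobox gene (600 bp), Sox3, a SoxB1 factor (590 bp), and Msi1, an RNA-binding protein of stem cells (471 bp). Sox2 and Nes had both, with Smad3 regions of 2351 and 4910 bp.

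Of 45 neurogenic transcription factor genes, 25 had Smad3 and 8 of those lacked JMJD3 (32.0%, 14.9 to 53.5). That interval includes the 21.3% of all Smad3-bound genes. The neighbours Dlx1 and Dlx2, homeobox genes of interneuron progenitors, both belonged here, with 691 and 981 bp. JMJD3 lay 799 bp from the Dlx2 region, and 12 JMJD3 peaks named that gene. Olig1, a factor of the oligodendrocyte lineage, had 4 promoter peaks, with 40 Smad3 and 17 JMJD3 peaks at the locus. Neurog1, a proneural factor, had 440 bp and a gap of 116420 bp, whereas Neurog2 had 331 bp of Smad3 with JMJD3. The remaining 4 were Dbx2 (480 bp), Bcl11b (420 bp), Pou3f3 (301 bp) and Bcl11a (160 bp). A JMJD3 peak that did not name Pou3f3 lay 180 bp from its region.

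Of 40 mature neuron genes, 7 were of the class, or 31.8% (13.9 to 54.9) of the 22 with Smad3. This interval, like those of the glial and cadherin genes below, includes the 21.3% of all Smad3-bound genes. Mapt, the gene of tau, had 820 bp, Syt1, the calcium sensor of synaptic vesicles, 730 bp, and Syn1, a vesicle protein, 600 bp. Elavl4 (380 bp), Grin2b (250 bp) and Syp (200 bp) were narrower. Of 20 glial genes, 3 were of the class, or 27.3% (6.02 to 61.0) of the 11 with Smad3. Pdgfra, the receptor of oligodendrocyte precursors, had 900 bp, Olig1 830 bp, and Gfap, the astrocyte filament gene, 581 bp with JMJD3 189 bp away. Potassium channel genes had a larger share than all Smad3-bound genes, 20 of 45 (44.4%, 29.6 to 60.0), with narrow regions (median 345 bp). The widest of these were at Kcnd3 (790 bp), Kcnk2 (730 bp) and Kcnt1 (710 bp). Cadherin and protocadherin genes had 6 of 19 (31.6%, 12.6 to 56.6), led by Cdh19 (930 bp), Cdh6 (620 bp) and Cdh10 (430 bp).

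Immediate early genes had the smallest share among the lists. Smad3 was at 31 of 32, and Fosl1, an AP-1 subunit, was the 1 without JMJD3 (3.23%, 0.0816 to 16.7), with 3 peaks in 1010 bp. The 31 had a median Smad3 region of 1560 bp, the widest of any list. Share and width ran opposite ways here and in the response genes, as they did over all genes.

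Cell division genes were mostly bound by both. Of 54 listed, 12 were of the class (22.2%), which is 23.1% of the 52 with Smad3, close to the background of 21.3%. They included the mitotic kinases Aurka (690 bp) and Aurkb (971 bp), the B cyclins Ccnb1 (840 bp) and Ccnb2 (241 bp), and the spindle checkpoint genes Bub1 (650 bp), Bub1b (790 bp) and Bub3 (440 bp). Rbl1, a pocket protein, had the widest region, 1050 bp, and Chek1, a checkpoint kinase, had 891 bp. Top2a, Cenpe and Cdk6 completed the list. Of 54 DNA repair genes, 11 were of the class, which is 21.6% (11.3 to 35.3) of the 51 with Smad3, also close to the background. The regions of these 11 were wide (median 850 bp). Examples are Fanci (1300 bp) and Fancf (1150 bp), both of the Fanconi pathway, and Lig3, a DNA ligase (1170 bp).

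Among housekeeping lists the share of Smad3-bound genes without JMJD3 ran from 11.7% of splicing factor genes (9 of 77) to 28.2% of respiratory chain genes (20 of 71). Mitochondrial ribosomal proteins had 18 of 70 (25.7%), cytoplasmic ribosomal proteins 15 of 72 (20.8%), ubiquitin pathway genes 13 of 71 (18.3%), proteasome subunits 6 of 36 (16.7%), tRNA synthetases 5 of 30 (16.7%) and cilium genes 8 of 50 (16.0%). Apart from splicing factor genes, whose interval of 5.49 to 21.0 ended just below 21.3%, these intervals included the background. The widest of these regions were at Atp5g2 and Atp5h (1200 bp), Rpl35 (1170 bp), Psmb10 (1080 bp), whose region reached JMJD3 beyond 1 kb of the TSS, and Mrpl46 with Mrps11, which shared 1030 bp. Snrpf and Aars had 930 bp each and Tmem67, a transition zone protein of cilia, had 920 bp.

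Zinc finger genes named Zfp stood above the background. Of 301 with Smad3, 101 lacked JMJD3 (33.6%, 28.2 to 39.2). The median region of these 101, 550 bp, was close to the 521 bp of the class, and that of all 301 was 680 bp. The part of width in the share was not tested. Zfp462 had 6 promoter peaks and a region of 1591 bp, Zfp959 had 1241 bp and Zfp444 had 1210 bp. Solute carrier genes had 31 of 170 (18.2%, 12.7 to 24.9), an interval that includes the background of 21.3%. The widest of these were at Slc25a24 (950 bp), Mcart1 (940 bp) and Slc8a3 (920 bp). Hox and olfactory receptor genes rarely had promoter Smad3. The class held Hoxa4 and Hoxa5 of 39 Hox genes, and Olfr288 and Olfr536 of 1104 olfactory receptor genes. Of the 26 lists, 16 had a larger share of all their genes in the class than the 11.7% of all coding genes, which counts lists with more Smad3 as well as lists with less JMJD3.

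**Figure D4:**
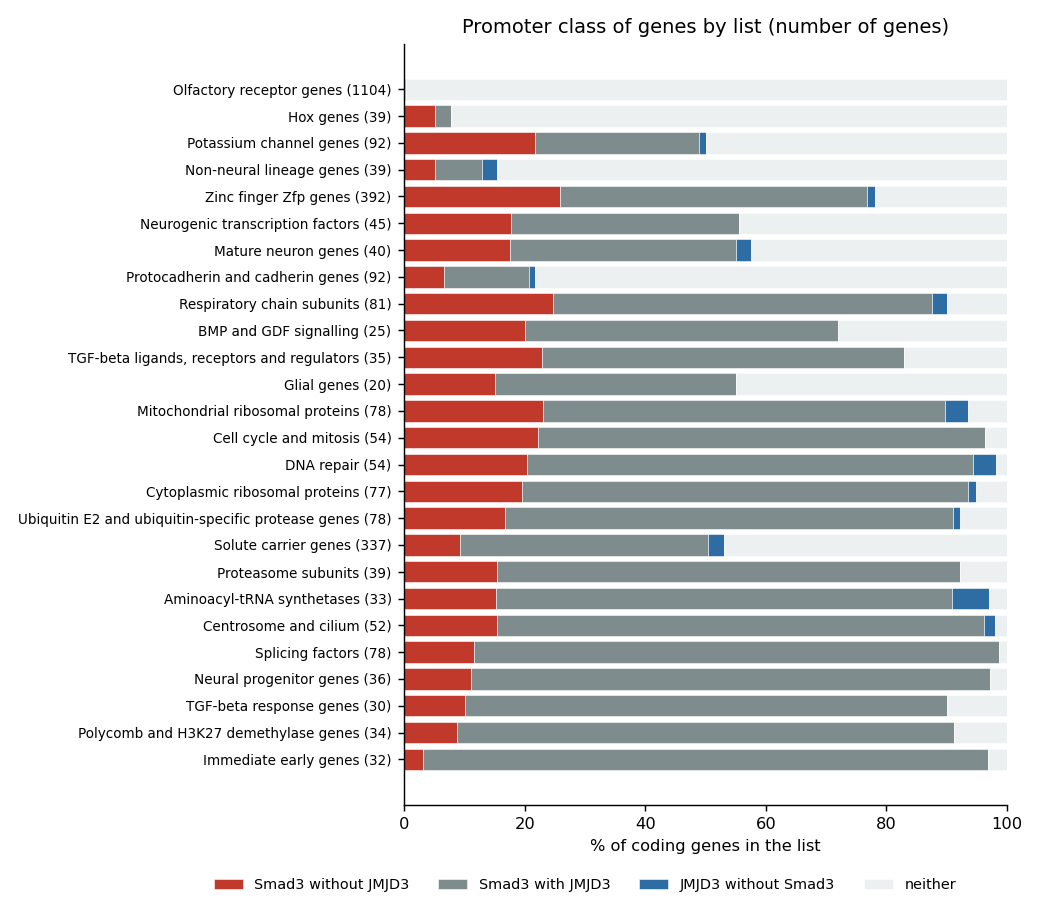
Share (%) of the coding genes in each of 26 lists by promoter class, with the number of genes in parentheses; lists are ordered by the share of Smad3-bound genes without JMJD3. Immediate early genes have 1 of 31 such genes and potassium channel genes 20 of 45.

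Promoters with Smad3 and no JMJD3 were less rich in GC and CpG than those with both. Of the 2459 genes, 1930 had a promoter window off chromosome 18, whose sequences were not used. That is 80.6% of the 2396 genes off that chromosome and 78.5% of all. The median GC content was 58.0% (57.7 to 58.7), against 62.3% (62.0 to 62.7) with JMJD3 and 49.0% (48.7 to 49.3) at genes with neither, and 56.7% over all coding genes. The CpG ratio, observed over that given by base composition, had medians of 0.698, 0.802 and 0.226. A ratio below 0.4, as at promoters without a CpG island, was found in 18.8% (17.0 to 20.6), 8.36% (7.73 to 9.01) and 72.6%. The class thus lay between genes with both and genes with neither on each measure, and nearer to those with both. Genes with JMJD3 and no Smad3 (232 windows) had a median GC of 63.0% and a median ratio of 0.743. Their share below 0.4 was 19.4% (14.5 to 25.1), close to that of the class.

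**Figure D5:**
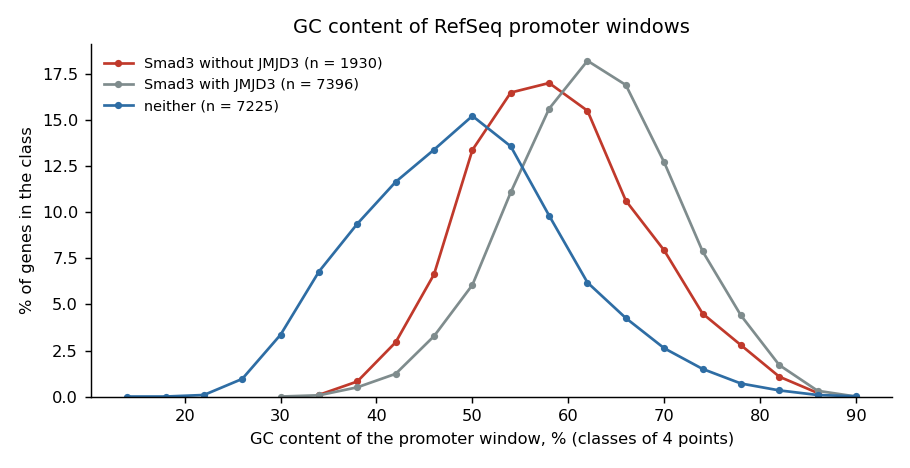
Share of genes (%) by the GC content of the promoter window, in classes of 4 percentage points, for genes with Smad3 and no JMJD3 (1930 windows), with both (7396) and with neither (7225). The curve of genes without JMJD3 lies between the other 2, with medians of 58.0%, 62.3% and 49.0%.

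The GC box GGGCGG, the element of Sp1-type factors, showed the largest gap. On either strand it was in 49.6% (47.3 to 51.8) of windows without JMJD3, 72.0% (70.9 to 73.0) with it, 22.3% with neither and 47.9% of all. Since wide regions more often had JMJD3, the comparison was repeated within 3 equal classes of width. The GC box was in 48.9% against 68.1% of windows in the narrowest class, 49.6% against 71.9% in the middle and 53.0% against 74.4% in the widest. Median GC differed likewise, at 58.0% against 60.7%, 58.7% against 62.0% and 58.7% against 63.7%. The share with a CpG ratio below 0.4 differed mainly in the narrowest class, at 24.5% against 13.1%. It was 10.1% against 7.22% in the middle class and 8.26% against 6.57% in the widest.

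The SMAD elements split by composition. GGCGC was in 60.2% of windows without and 70.4% with JMJD3, and GGCCG in 53.1% and 65.6%, with 48.1% and 45.0% over all genes. CAGAC was in 46.2% (44.0 to 48.5) and 46.9% (45.7 to 48.0), and in 48.6% of all. The palindrome GTCTAGAC was in 4 of 1930 and 17 of 7396 windows, and 37 of all 16783. GGCGC overlaps some GC boxes, and all of these short strings occur often by base composition alone.

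Elements more frequent without JMJD3 included the E-box CANNTG, in 67.3% (65.2 to 69.4) against 60.4% (59.3 to 61.5), which is the element of proneural factors, and the TATA box TATAAA, in 8.03% (6.86 to 9.33) against 5.84% (5.32 to 6.40). The CCAAT box went the other way, with 34.8% against 40.6% (39.4% of all). Of 15 elements searched, 4 had a higher share without JMJD3. The others were the AP-1 site TGANTCA (5.54% against 4.06%, and 7.20% of all) and the Ronin site ACTACAATT. The Ronin site was in 23 windows (1.19%, 0.757 to 1.78) against 54 (0.730%, 0.549 to 0.952), and in 0.578% of all. Its 2 intervals overlap. The other 5 elements differed little. The ETS site CCGGAAG was in 16.5% against 18.7% (12.3% of all), the RFX element GTTGCC in 12.2% against 13.2% (12.2%) and the YY1 site AAGATGGC in 4.46% against 4.72% (3.28%). The NRF1 site GCGCATGCG was in 3.78% against 4.00% (2.49%) and the CRE TGACGTCA in 3.37% against 3.47% (2.43%). The E-box and TATA box shares over all genes were 68.5% and 13.2%, above or near those of the class.

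Of promoter Smad3 peaks at coding genes, 28.6% lacked JMJD3, and the shares at microRNAs and long non-coding RNAs were higher, a difference that was not tested. Of 148 promoter Smad3 peaks that named a microRNA, 56 (37.8%, 30.0 to 46.2) at 37 genes were without JMJD3, and of 461 that named a long non-coding RNA, 159 (34.5%, 30.2 to 39.0) were. A microRNA's listed start is that of its hairpin, which need not be where transcription begins. The mature sequences are RefSeq's, found for 31 of the 37 genes, in RNA letters as U with the seed (bases 2 to 8) in capitals. The miR-9 genes Mir9-1 and Mir9-3, of a microRNA abundant in neural progenitors, had members and share both mature sequences.
miR-9-5p: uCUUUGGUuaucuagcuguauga
miR-9-3p: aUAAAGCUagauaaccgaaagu
miR-92b-3p: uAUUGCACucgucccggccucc
miR-130a-3p: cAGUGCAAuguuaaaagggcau
miR-23a-3p: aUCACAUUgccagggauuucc
Mir9-1 had 2 members in a region of 1630 bp on chromosome 3 (88020291 to 88021920), 1390 bp from JMJD3, and Mir9-3 had 4 members with a widest region of 931 bp on chromosome 7. Mir130a had 920 bp and a gap of 14050 bp, and Mir23a 640 bp and 1750 bp. Mir92b differed, since its 1 member was a flanking peak 69 bp from JMJD3.

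Small nucleolar RNA genes, which guide modification of ribosomal RNA and are mostly encoded in introns, had a larger share. Of 40 promoter Smad3 peaks that named them, 32 (80.0%, 64.4 to 90.9) at 22 genes were without JMJD3. In 16 of those 32, JMJD3 lay within 1000 bp, and 2 of the 32 were flanking peaks. Snord2 had 3 members in a region of 1890 bp and JMJD3 490 bp away, Snord35a had 1620 bp and 559 bp, and Snord49a had 1551 bp and a gap of 10949 bp. Since these genes lie within other genes, a peak that names them can be a flanking peak of the host. These genes were chosen after their values were seen.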

How the data were processed

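ChIP-seq peak lists of 1 Smad3 and 1 JMJD3 library were analysed; the input library was left out. The build mm9 and the programs CASAVA, Bowtie 0.12.7 and MACS 1.4 are named per the submitters' processing notes. Their settings, order and any use of the input were not given in the sources used here. Per the file headers, the deposited rows hold the position of each peak, the distance in bp from the closest TSS to its midpoint, and that gene. Peaks were listed per library, with edges on a 10 bp grid. Each peak names a single gene, so a divergent promoter can credit 1 gene of a pair.

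A peak was at a promoter when its distance was at most 1000 bp and overlapped when it shared 1 bp or more. Smad3 peaks at most 10 bp apart were joined into regions. Of 16428 named genes, 16331 matched a RefSeq table (GRCm38.p6) by Entrez ID. The 20953 coding genes were those with a curated transcript on an autosome or the X chromosome. A gene was without JMJD3 when no promoter Smad3 peak of it overlapped JMJD3 and no JMJD3 peak within 1000 bp named it. No test was made, since there was 1 library per antibody. Motifs (15) were searched on both strands of RefSeq windows of 300 bases, not in the peaks themselves.

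The members, the 26 gene lists and the markers were chosen with earlier results of these data known. Named genes were the 10 with the widest regions, the 5 with the most Smad3 peaks, the 5 farthest from JMJD3, the 3 widest of each list and the 5 genes with the most members beside JMJD3, without predicted genes, clones, microRNAs or genes on chromosome 18, and 10 set genes wherever they lie. Other list members were named after their values were seen. A gene that the rule takes is not reported here. Scripts ran in Python 3.11.15 with pandas 2.3.3 and SciPy 1.17.1 and were tested on simulated data. Alternatives changed the distance limit, the overlap, the unit, the peaks used, the background and the window.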

Additional observations from a re-analysis of the deposited data

How the results depend on the processing

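No paired analysis was possible because there was 1 library per antibody. Values are the number of members, their share of promoter Smad3 peaks, the share upstream, the share in a region with an overlapping peak, the median region width and the median gap, with 7252, 29.1%, 40.1%, 14.2%, 550 bp and 3514 bp as reported. A limit of 500 bp gave 4490, 23.8%, 47.6%, 9.42%, 600 bp and 8889 bp, and for a limit of 2500 bp the last 5 were 33.6%, 37.9%, 12.51%, 500 bp and 1490 bp. Requiring no JMJD3 within 200 bp gave 23.1%, 44.0%, 6.79%, 540 bp and 7840 bp, and counting overlap from 50% of the peak gave 35.7%, 38.3%, 25.1%, 610 bp and 699.5 bp. Joined regions as units gave 4653, 31.6%, 42.6%, a width of 410 bp and a gap of 5680 bp. The 50% of peaks in wider regions gave 3547, 19.7%, 38.6%, 27.9% and 881 bp, and cut the genes without JMJD3 from 2459 to 1098. The number of motifs more frequent without JMJD3 was 7 in place of 4 in windows of 100 bases. The cause was not tested.

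Gene counts moved less under the other settings. Of the 2459 genes, 2252 were in the class at 500 bp and 2276 at 2500 bp, and 2415 with no JMJD3 within 200 bp. Median GC stayed between 57.7% and 58.3% under all 7 alternatives run. Between 15 and 18 lists exceeded the share of all coding genes, against 16. A pair of alternatives was chosen after seeing the data: an overlap of at least 2 bp gave 7300 members, and leaving out genes with any JMJD3 base within 1000 bp gave 2376 genes. The depth behind the peaks is unknown, so a missing JMJD3 peak means that none was listed, not that JMJD3 was absent. The JMJD3 list held fewer peaks than the Smad3 list, 63154 against 98086, and its part in these values was not tested.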

Other observations

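The 43 promoter Smad3 peaks that named an annotated ribosomal RNA gene all named Rn4.5s and all lacked JMJD3. They belong to a tandem array on chromosome 6 (47600611 to 47726201, mm9) that held 93 Smad3 peaks in 24 regions with a median width of 2231 bp and no JMJD3 peak. The widest Smad3 region without JMJD3 at any named start, 5980 bp on chromosome 17 (39979861 to 39985840), held 14 Smad3 peaks, 6 of them members that named Mir715, and no JMJD3 peak lay within it. Read numbers are unknown and the input library was left out. The part of repeated sequence and of read mapping in the peaks at the array and at Mir715 was therefore not tested.

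On the X chromosome 198 of 551 promoter Smad3 peaks lacked JMJD3 (35.9%, 31.9 to 40.1), the highest share of any chromosome with over 100 promoter peaks, against 28.9% (28.4 to 29.5) on the autosomes. Beyond 1 kb the X share was 40.2% (37.4 to 43.1). Histone genes named Hist had 44 of 158 promoter Smad3 peaks without JMJD3 (27.8%, 21.0 to 35.5), near the 29.1% of all promoter peaks, although Hist1h4h held the widest region of the class. Regions shared with another gene were found at 134 of the 2459 genes without JMJD3 (5.45%, 4.59 to 6.42) and at 977 of the 9065 with it (10.8%, 10.1 to 11.4). The first class also had narrower regions (median 521 bp against 821 bp), and the part of width in this difference was not tested.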
